A study of Mus musculus with 3 samples.

Results

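The desmosome genes described here were 10 genes for the building blocks of desmosomes, read in single cells sorted from the mouse larynx. They were the desmosomal cadherins Dsc2, Dsc3, Dsg2 and Dsg3, the armadillo proteins Pkp1, Pkp2, Pkp3 and Jup, the linker Dsp, and the desmosome-associated membrane protein Perp. They were chosen by name, and each name matched 1 of the 33696 features counted. All 10 passed the filter on low counts in each comparison.

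Desmosomes are spot junctions that tie the keratin filaments of neighboring epithelial cells together. Desmogleins and desmocollins are cadherins that reach across the gap between cells; inside the cell their tails bind plakoglobin and plakophilins, which bind desmoplakin, and desmoplakin binds the keratin filaments. The cadherins and plakophilins come in several isoforms from paralogous genes: in the textbook account Dsg2, Dsc2 and Pkp2 belong to simple epithelia and to basal layers, while Dsg3, Dsc3 and Pkp1 belong to stratified epithelia.

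The cells came from larynges of Lrig1CreERT2/+; ROSALSL-tdTom/+ mice. In these mice tamoxifen activates Cre in cells that use the Lrig1 promoter, and those cells and their progeny then carry the tdTomato (tdTom) reporter. All animals received tamoxifen on 2 consecutive days, and tissue was taken 1 day later and sorted for tdTom, so the data hold a single condition with no untreated library, and no age was given in the sources used here. Each of the 3 libraries pooled 10 larynges, 5 from males and 5 from females; the library is the replicate (n = 3), and animals within a pool could not be separated. The sort limits the data to cells labeled through Lrig1, so a laryngeal cell type without Lrig1 history may be missing or thinly sampled.

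Unique molecular identifiers (UMIs), each standing for 1 captured RNA molecule, were counted from the 3' end of transcripts. After limits on genes, UMIs and mitochondrial reads and removal of likely doublets, 13222, 7201 and 24119 cells remained in libraries 1, 2 and 3, with a median of 10217 to 14059 UMIs per cell. Libraries shared 46 to 165 cell barcodes, at most 0.913% of the smaller library. Cell classes were set by UMI counts of fixed marker genes, none of them a desmosome gene, and 54.3% of the kept cells fell into a class. The gates are UMI counts, so they favor deep cells, with a median of 14153.5 UMIs in classes against 6221 outside them. Basal cells (14751) carried Trp63 and Krt5 or Krt15; squamous cells (1475) carried at least 20 UMIs of the suprabasal keratin Krt13; secretory cells (623) carried secretoglobins with at most 1 UMI of Trp63; ciliated cells (907) carried Foxj1 and other genes of motile cilia. Of the marker genes kept apart to check these classes, 6 of 6 for squamous, 4 of 4 for ciliated and 3 of 5 for secretory cells were highest in their own class, but only 1 of 5 was for basal cells: Aqp3, Krt14 and Col17a1 were higher in squamous cells and Dapl1 in secretory cells with Trp63. The 6 check genes highest in the squamous class were Tmprss11b, Krtdap, Sbsn, Cnfn, Sprr1a and Lypd3. The class also held the basal keratin Krt14 at 1403 CPM against 808.7 CPM in basal cells, and the cornified-layer gene Sprr3 was close to 0 (0.243 CPM). The name squamous stands for the gate, Krt13-high epithelium, and not for a terminally differentiated layer. How far these cells were differentiated was not tested. In secretory cells 6 secreted-product genes (Scgb1a1, Scgb3a1, Scgb3a2, Bpifa1, Ltf and Reg3g) took 18.3% of all UMIs on average, against 0.301% in basal cells, and Bpifa1 and Ltf were also high in gland acinar cells.

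Levels are given as CPM, the UMIs of a gene summed over all cells of a class in a library and scaled to the same total in every sum, and the 3 values of a gene are those of libraries 1, 2 and 3. Because 3' capture differs between transcripts, a level is compared between classes for 1 gene and never between genes. Differences are log2 fold changes from an edgeR fit across all genes, with standard error (SE) and a p adjusted over all genes tested; a gene was called at an adjusted p below 0.05.

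The 10 genes did not all move the same way. From basal to squamous cells 8 of the 10 were higher and 1 was lower, where 12.8% of all 16371 genes tested were called higher and 14% lower. From basal to secretory cells 1 was higher and 8 were lower (14.1% and 11.4% of all genes), and from basal to ciliated cells 2 were higher and 8 lower (31.7% and 29.3% of all genes). Between the differentiated classes themselves, 1 gene was higher and 8 were lower in secretory than in squamous cells (19.5% and 18.7% of all genes). The median log2 fold change of the 10 genes was 1.04, -1.07, -1.67 and -2.05 in these 4 comparisons, against -0.06, -0.06, -0.04 and 0 over all genes. With library totals in place of TMM factors the calls over all genes leaned lower, with 1276 higher and 3108 lower instead of 2100 and 2287 in squamous, 1413 and 5440 instead of 2312 and 1860 in secretory and 4175 and 6287 instead of 5193 and 4789 in ciliated cells, each against basal cells, and 2472 and 4668 instead of 3193 and 3058 in secretory against squamous cells. The median over all genes then moved to -0.20, -0.42, -0.32 and -0.21. Without the filter on low counts, the calls between squamous and basal cells were 1373 higher and 2761 lower. Under either change the 10 genes kept their calls, except Dsg2 in ciliated cells with library totals. The genes that ran against the rest were Dsg2, lower in squamous and higher in ciliated cells, and Pkp2, higher in secretory and ciliated cells.

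**Figure D1:**
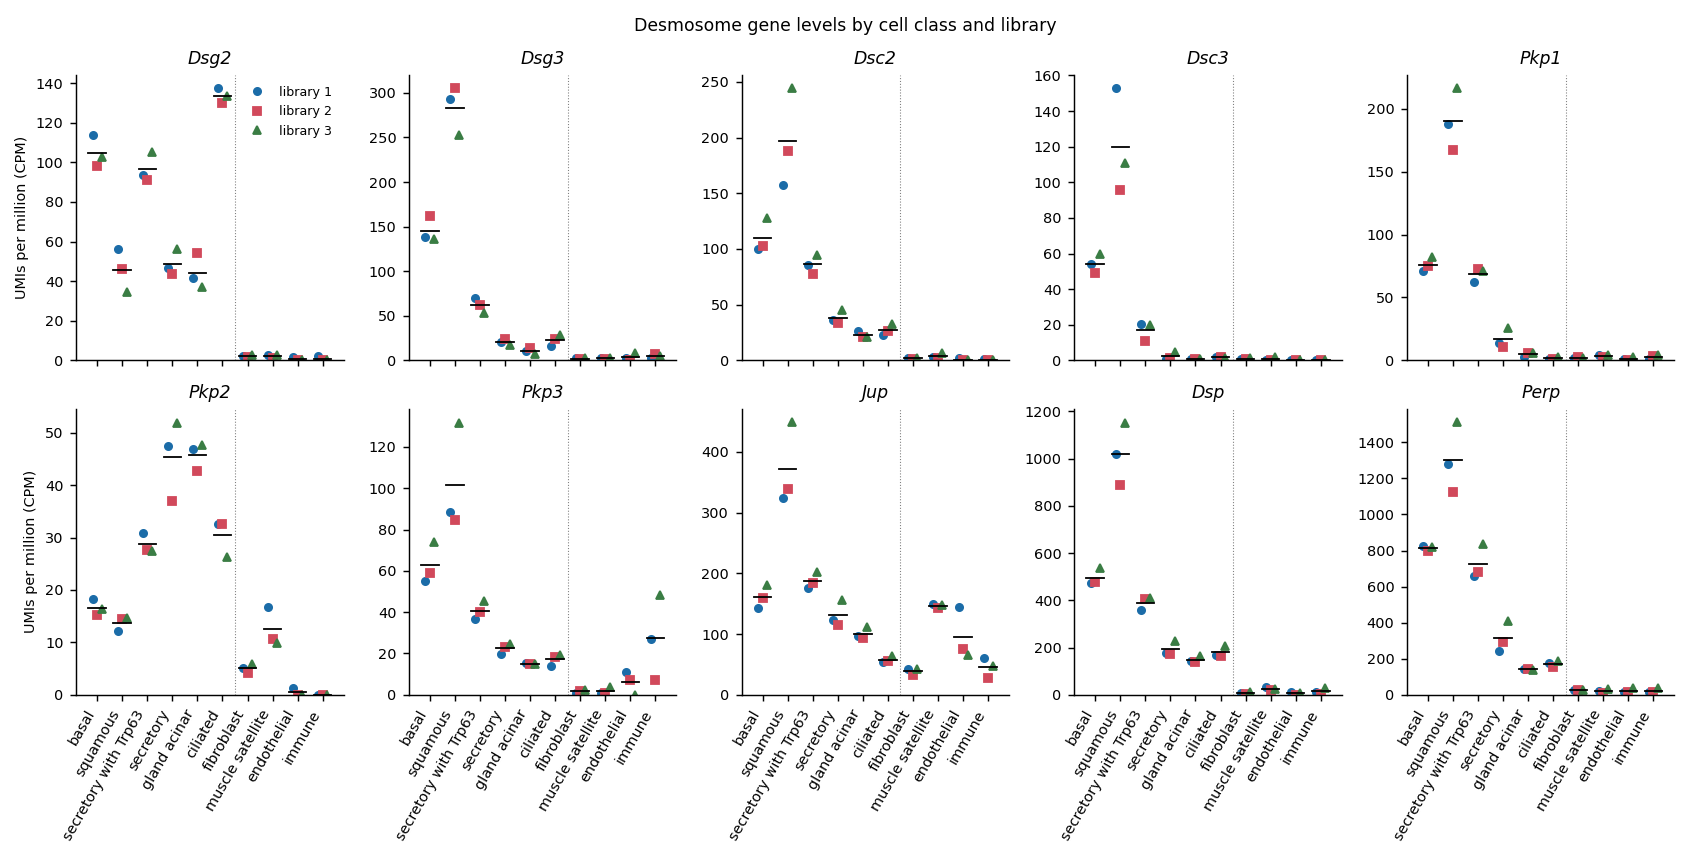
Levels of the 10 desmosome genes in CPM (y axis, linear, from 0) in 10 cell classes (x axis); each point is 1 library, the black bar is the mean of 3 libraries, and the dotted line parts epithelial from other classes. Dsg3, Dsc3 and Pkp1 peak in squamous cells, Dsg2 peaks in ciliated cells at 134 CPM and Pkp2 in gland acinar cells at 45.7 CPM.

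The desmogleins moved in opposite directions. Dsg2, the desmoglein of simple epithelia, stood at 114, 98.1 and 103 CPM in basal cells and at 56.1, 46.3 and 34.6 CPM in squamous cells. The groups did not overlap, and the squamous libraries were all lower, a log2 fold change of -1.07 (SE 0.17, adjusted p = 2.62e-05). In ciliated cells Dsg2 was the highest of any class with 3 libraries, at 137, 130.1 and 134 CPM, and in secretory cells it stood at 46.5, 43.7 and 56.1 CPM. The ciliated libraries all lay above the basal ones, a log2 fold change of 0.63 (SE 0.17, adjusted p = 0.00164), though the call was lost without library 1 (adjusted p = 0.0854), and with library totals in place of TMM factors (adjusted p = 0.0736). The secretory libraries all lay below the basal ones, with -0.73 (SE 0.17, adjusted p = 0.00193), and this call too was lost without library 1 (adjusted p = 0.0507). Between secretory and squamous cells, whose libraries overlapped, the log2 fold change was 0.33 (SE 0.18, adjusted p = 0.148) and was not called.

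Dsg3, the desmoglein of stratified epithelium and the main target of autoantibodies in pemphigus vulgaris, stood at 138, 162 and 136 CPM in basal cells and at 293, 305 and 252 CPM in squamous cells. Each squamous library was above each basal one, a log2 fold change of 1.10 (SE 0.18, adjusted p = 4.02e-05). In secretory cells Dsg3 fell to 20.4, 24.3 and 17.7 CPM and in ciliated cells to 16.7, 24.4 and 29.0 CPM. These were 5.55-fold and 5.19-fold below basal cells, log2 fold changes of -2.47 (SE 0.21, adjusted p = 5.41e-10) and -2.37 (SE 0.20, adjusted p = 4.13e-11), and neither class overlapped with basal cells. Both classes also lay above immune (2.71, 7.05 and 4.37 CPM), endothelial (2.40, 0 and 8.64 CPM), satellite and fibroblast cells in each library. By contrast, the levels of Dsc3, Pkp3 and Jup in both classes and of Pkp1 in ciliated cells overlapped with those of at least 1 non-epithelial class. Perp in both classes overlapped with pericytes and smooth muscle cells, at 119 and 324 CPM in libraries 1 and 3. The folds and ratios given for these genes thus compare measured levels, in which the part of free RNA was not tested. The non-epithelial classes admitted only cells without a UMI of Epcam or Cdh1. Cells with stray RNA of these genes were left out, so their levels do not show the full part of free RNA. Between secretory and squamous cells the log2 difference of Dsg3 was -3.57 (SE 0.21, adjusted p = 5.82e-13). Against basal cells, then, squamous cells held more Dsg3 and less Dsg2, ciliated cells more Dsg2 and less Dsg3, and secretory cells less of both.

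The desmocollins both rose from basal to squamous cells and both fell elsewhere, but to very different depths. Dsc2, the broadly used desmocollin, stood at 99.7, 103 and 128 CPM in basal, 158, 188 and 244 CPM in squamous, 36.3, 34.0 and 44.9 CPM in secretory and 22.6, 26.0 and 32.7 CPM in ciliated cells. Basal cells did not overlap with any of the other classes. The log2 fold changes against basal cells were 0.98 (SE 0.19, adjusted p = 3.30e-04) in squamous, -1.15 (SE 0.20, adjusted p = 8.88e-05) in secretory and -1.75 (SE 0.21, adjusted p = 3.11e-08) in ciliated cells.

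Dsc3, the desmocollin of stratified epithelium, stood at 54.0, 49.1 and 59.9 CPM in basal and at 153, 95.6 and 111 CPM in squamous cells, with library 1 the highest of the squamous values. The squamous libraries were all higher, with a log2 fold change of 1.29 (SE 0.25, adjusted p = 4.63e-04), a call lost without library 1 (adjusted p = 0.0623). In secretory cells only 4, 2 and 21 UMIs of Dsc3 were counted, 0.948, 1.21 and 4.60 CPM, and in ciliated cells 11, 7 and 6 UMIs, 1.78, 1.86 and 1.47 CPM. Dsc3 was thus 16.8-fold lower in secretory and 26.0-fold lower in ciliated than in basal cells, log2 fold changes of -4.07 (SE 0.38, adjusted p = 1.36e-08) and -4.70 (SE 0.38, adjusted p = 1.37e-10), with the size of both folds resting on these few molecules. Between secretory and squamous cells the log2 fold change was -5.35 (SE 0.37, adjusted p = 9.11e-11) for Dsc3 and -2.13 (SE 0.21, adjusted p = 5.24e-09) for Dsc2.

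**Figure D2:**
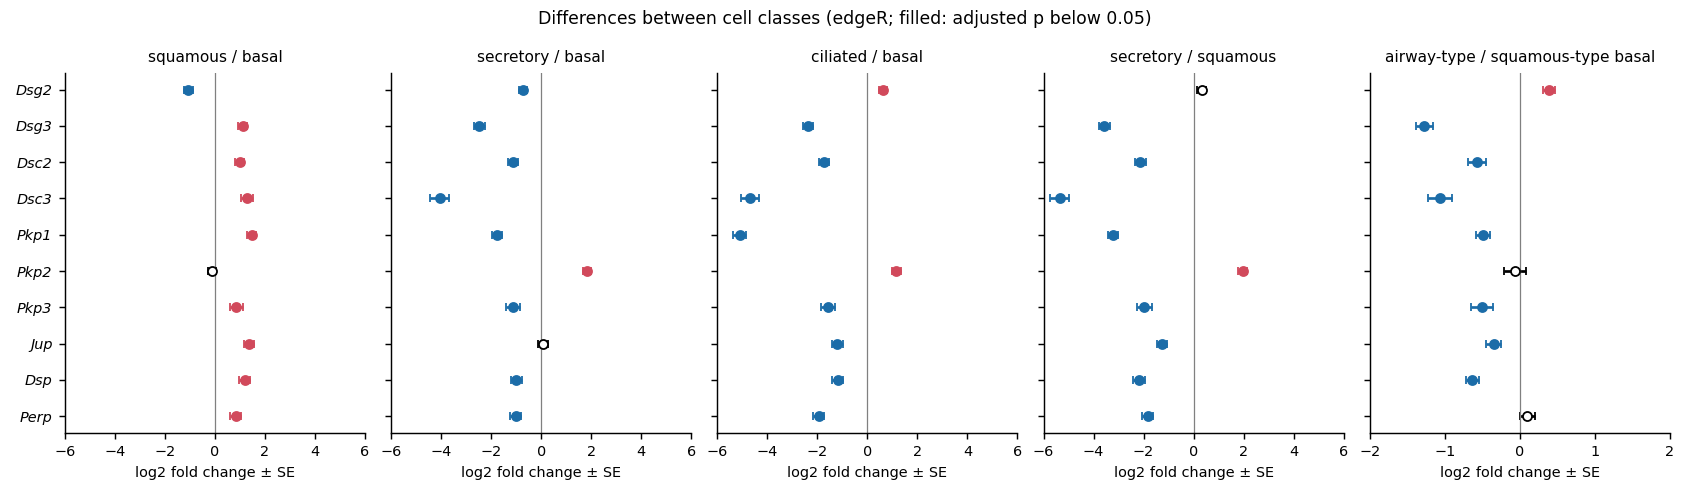
Log2 fold changes of the 10 desmosome genes (x axis, points; bars are the SE of the edgeR fit over 3 libraries) in 5 comparisons of cell classes; red and blue filled points passed an adjusted p of 0.05 as higher or lower, open black points did not. Dsg2 at -1.07 lies opposite to Dsg3 at 1.10 in squamous against basal cells, and Pkp2 at 1.83 lies opposite to Pkp1 at -1.76 in secretory against basal cells; the right panel has a narrower x axis.

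Among the plakophilins, which cluster the cadherins and recruit desmoplakin, Pkp1 and Pkp2 ran opposite to each other. Pkp1, the plakophilin of stratified epithelium whose loss causes skin fragility, stood at 70.8, 74.9 and 82.1 CPM in basal cells and at 188, 167 and 216 CPM in squamous cells. It had the largest rise of the 10 genes from basal to squamous cells, 1.47 (SE 0.18, adjusted p = 8.02e-07), with no overlap of libraries. In secretory cells it stood at 13.7, 10.9 and 25.6 CPM, with library 3 highest, and in ciliated cells at 1.46, 1.33 and 2.70 CPM from 9, 5 and 11 UMIs. Both were below the basal level, with log2 fold changes of -1.76 (SE 0.21, adjusted p = 1.88e-07) and -5.12 (SE 0.28, adjusted p = 3.35e-15), and between secretory and squamous cells it was -3.23 (SE 0.21, adjusted p = 3.83e-12). The ciliated libraries overlapped with those of fibroblasts, connective tissue cells that are not known to build desmosomes, at 1.55, 2.78 and 2.29 CPM.

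Pkp2, the plakophilin of simple epithelia and heart muscle, was low in basal cells at 18.3, 15.2 and 16.4 CPM and in squamous cells at 12.2, 14.5 and 14.6 CPM. The libraries of the classes did not overlap, though by a narrow margin, and the log2 fold change of -0.13 (SE 0.17, adjusted p = 0.614) was not called. Secretory cells, in contrast, stood at 47.4, 37.0 and 51.9 CPM and ciliated cells at 32.5, 32.6 and 26.3 CPM, each library above each basal library. Pkp2 was 3.55-fold higher in secretory and 2.23-fold higher in ciliated than in basal cells, log2 fold changes of 1.83 (SE 0.17, adjusted p = 9.87e-09) and 1.16 (SE 0.17, adjusted p = 2.15e-06). In secretory against squamous cells it was 1.96 (SE 0.18, adjusted p = 4.08e-09). Of the 10 genes, Pkp2 alone passed as higher in secretory cells.

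Pkp3, which is found in nearly all desmosomes of epithelia, stood at 55, 58.9 and 74.0 CPM in basal and 88.3, 84.7 and 132 CPM in squamous cells. The squamous libraries were all higher, with library 3 highest in both classes. The log2 fold change of 0.85 (SE 0.25, adjusted p = 0.0138) lost its call without library 1 (adjusted p = 0.166) and without library 2 (adjusted p = 0.0688). Pkp3 fell to 19.7, 23.1 and 24.5 CPM in secretory and 13.9, 18.3 and 19.4 CPM in ciliated cells, log2 fold changes of -1.12 (SE 0.28, adjusted p = 0.00347) and -1.59 (SE 0.28, adjusted p = 1.83e-05) against basal cells. In secretory against squamous cells it was -1.97 (SE 0.29, adjusted p = 3.42e-06). It therefore followed Pkp1 in direction but spanned a smaller range.

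Jup encodes plakoglobin, which binds the tails of desmosomal and also of classical cadherins. It stood at 144, 159 and 181 CPM in basal, 325, 339 and 449.8 CPM in squamous, 123, 115 and 155 CPM in secretory and 54.5, 55.5 and 63.1 CPM in ciliated cells. Each squamous library was higher and each ciliated library lower than the basal ones, with log2 fold changes of 1.35 (SE 0.20, adjusted p = 1.18e-05) and -1.20 (SE 0.21, adjusted p = 1.20e-05). Secretory cells overlapped with basal cells, with a log2 fold change of 0.07 (SE 0.20, adjusted p = 0.852). Its sign turned with library totals, to -0.29, which is still above the median of all genes under that scaling. Jup was the member that was called neither higher nor lower in secretory against basal cells, but it was lower in secretory than in squamous cells, at -1.28 (SE 0.20, adjusted p = 1.25e-05).

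Dsp encodes desmoplakin, the linker to keratin filaments that no desmosome lacks. Its level was 475, 478 and 535 CPM in basal, 1021, 887 and 1152 CPM in squamous, 179, 173 and 228 CPM in secretory and 168, 162 and 207 CPM in ciliated cells. The squamous libraries were all above the basal ones, a log2 fold change of 1.18 (SE 0.23, adjusted p = 2.76e-04), although the call was lost without library 1 (adjusted p = 0.0539). The secretory and ciliated libraries were all below, with -1.0 (SE 0.23, adjusted p = 0.00140) and -1.19 (SE 0.23, adjusted p = 5.53e-05); the secretory call was lost without library 1 (adjusted p = 0.0534). In secretory against squamous cells the log2 fold change was -2.18 (SE 0.24, adjusted p = 2.74e-08). The secretory and ciliated libraries overlapped with each other. Perp, a tetraspan membrane protein and p63 target that desmosome assembly in stratified epithelium needs, followed the same order: 822, 796 and 820.3 CPM in basal, 1281, 1122 and 1510.4 CPM in squamous, 242, 294 and 407 CPM in secretory and 177, 154 and 186 CPM in ciliated cells. Its log2 fold changes against basal cells were 0.82 (SE 0.21, adjusted p = 0.00527), -1.02 (SE 0.22, adjusted p = 7.04e-04) and -1.96 (SE 0.22, adjusted p = 1.59e-08), and in secretory against squamous cells it was -1.84 (SE 0.22, adjusted p = 1.73e-07). The squamous call was lost without library 1 (adjusted p = 0.119) and without library 2 (adjusted p = 0.0937), and the secretory call without library 1 (adjusted p = 0.0527) and without library 2 (adjusted p = 0.0641).

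Without library 1 the calls between squamous and basal cells shrank to 4 genes higher (Dsc2, Dsg3, Pkp1 and Jup) and 1 lower (Dsg2) among the 10, and to 1701 of all genes from 4387 (3.72% higher and 6.6% lower). Without library 2, 6 were higher and 1 lower (7.41% and 9.61% of all genes). Leaving out library 1 left 1 higher and 5 lower genes between secretory and basal cells (6.67% and 6.01% of all genes). Between ciliated and basal cells it left 1 higher and 8 lower (22.7% and 27.5%). The calls between secretory and squamous cells were 1 higher and 8 lower whichever library was left out. Of all genes, 11.3% were higher and 10.5% lower there without library 1, 15% and 14.6% without library 2, and 15.9% and 14.7% without library 3.

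Promoters are given here for 2 of the 10 genes, Jup and Dsp, from the RefSeq table (GRCm38.p6). Whether promoters of the other members could be matched there is left open. Both genes rose in squamous and fell in ciliated cells, while in secretory cells Dsp was called lower and Jup was not called. Each sequence is the 250 bases before the annotated start in the direction of the gene, at chr11:100397791-100398040 (minus strand) and chr13:38151044-38151293 (plus strand) of GRCm38.p6; capitals mark GC boxes (GGGCGG on either strand) and CCAAT boxes (CCAAT on either strand).
Jup: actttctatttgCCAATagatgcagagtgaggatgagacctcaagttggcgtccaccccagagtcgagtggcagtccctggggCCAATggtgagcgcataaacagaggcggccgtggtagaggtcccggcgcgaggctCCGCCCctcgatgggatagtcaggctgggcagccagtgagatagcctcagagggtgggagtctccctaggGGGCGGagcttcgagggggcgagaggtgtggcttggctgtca
Dsp: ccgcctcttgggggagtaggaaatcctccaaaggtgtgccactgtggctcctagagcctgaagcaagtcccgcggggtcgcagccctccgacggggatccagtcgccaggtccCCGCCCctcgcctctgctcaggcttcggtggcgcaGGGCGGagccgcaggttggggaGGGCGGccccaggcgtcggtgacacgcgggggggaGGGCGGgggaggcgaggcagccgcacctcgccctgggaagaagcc

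The Jup window held 2 GC boxes and 2 CCAAT boxes, and the Dsp window held 4 GC boxes and no CCAAT box. Of all 32851 promoter windows of this length 32.7% held a GC box and 33.8% a CCAAT box. Neither window held a TATA box (TATAAA, in 12.4% of all), an E box (CANNTG, in 66.2%), an AP-1 site (TGANTCA, in 6.75%) or a grainyhead-type site (AACNNGTT, in 3.64%), each searched on both strands, and no searched motif shares bases with another in these windows. G and C made up 62% of the Jup and 72.4% of the Dsp window, against a median of 52.4% over all windows. These are matches of letters and not measured binding sites.

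In the genome (GRCm39) the 4 cadherin genes lie together on chromosome 18, with Dsc2 and Dsc3 on the minus strand and Dsg2 and Dsg3 on the plus strand. Thus Dsg2 and Dsg3, which moved in opposite directions from basal to squamous cells, lie close together on the same strand. The other members are scattered: Pkp1 at chr1:135799133-135846945 (minus strand), Pkp2 at chr16:16031144-16090586 (plus), Pkp3 at chr7:140658040-140670423 (plus), Jup at chr11:100259784-100291103 (minus), Dsp at chr13:38335230-38382553 (plus) and Perp at chr10:18720715-18732821 (plus). The members that rose with Dsg3 lie on 6 chromosomes.

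The ratio of a paralog pair gives the exchange within a library as 1 value that does not depend on the library total. The log2 ratio of Dsg3 to Dsg2 UMIs was 0.28, 0.72 and 0.41 in basal cells, 2.38, 2.72 and 2.87 in squamous cells, -1.19, -0.85 and -1.66 in secretory cells and -3.04, -2.41 and -2.21 in ciliated cells. The zero point of such a ratio depends on how well each transcript is captured, so only shifts between classes are read. Squamous cells had the highest ratio, then basal, secretory and ciliated cells, and no pair of these 4 classes overlapped. From basal to squamous cells it rose 4.56-fold, and between squamous and secretory cells it differed 14.8-fold.

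The log2 ratio of Pkp1 to Pkp2 showed the widest range of the 4 pairs examined: 1.95, 2.30 and 2.33 in basal, 3.94, 3.53 and 3.89 in squamous, -1.79, -1.76 and -1.02 in secretory and -4.48, -4.62 and -3.28 in ciliated cells. The order was the same as for the desmogleins, again with no overlap of classes. From squamous to secretory cells it fell 39.7-fold. Pkp3 to Pkp2 was likewise highest in squamous, then basal cells, but here secretory and ciliated cells overlapped; it went from a mean of 1.91 ± 0.30 (SD, n = 3) in basal and 2.86 ± 0.31 in squamous cells to -1.01 ± 0.30 in secretory and -0.83 ± 0.39 in ciliated cells.

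The desmocollin ratio behaved differently. Dsc3 to Dsc2 had a log2 ratio of -0.88, -1.06 and -1.10 in basal and -0.04, -0.98 and -1.14 in squamous cells, which overlapped, with library 1 alone apart from the others. In secretory cells it was -5.26, -4.81 and -3.29 and in ciliated cells -3.67, -3.81 and -4.47, resting on at most 21 Dsc3 UMIs in a library. Thus the desmocollins rose together toward squamous cells, with no exchange detected, whereas Dsc3 fell further than Dsc2 in secretory and ciliated cells. With 3 libraries a class, the 2-sided exact permutation test cannot go below p = 0.1, and it gave this smallest value, 0.111 after adjustment over the 20 ratio comparisons, in 18 of them. The exceptions were Dsc3 to Dsc2 between squamous and basal cells (exact p = 0.7, adjusted 0.7) and Pkp3 to Pkp2 between the basal cell types (exact p = 0.2, adjusted 0.211). The test does not use the pairing by pool, and within libraries the latter ratio was lower in airway-type cells in 3 of 3, by a log2 difference of -0.46 ± 0.11 (mean ± SD).

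**Figure D3:**
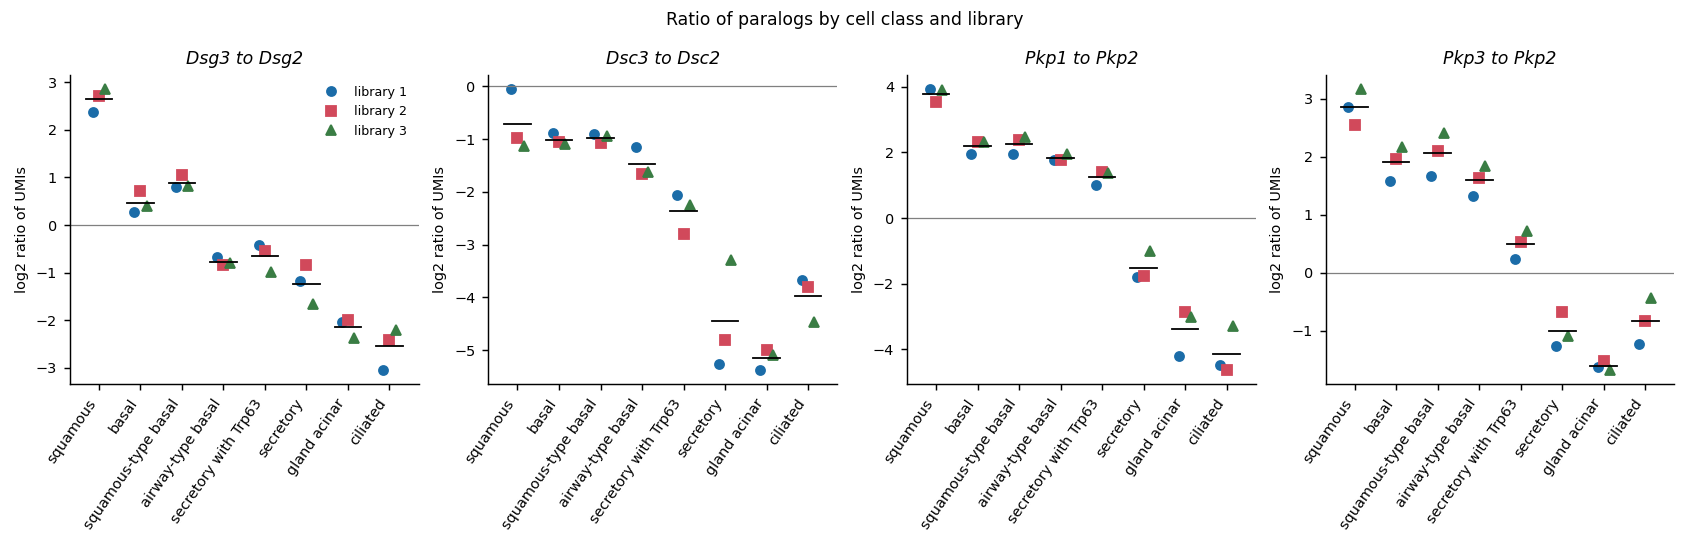
Log2 ratio of UMIs of 4 paralog pairs (y axis, own scale in each panel; 0 is an equal number of UMIs, not of transcripts) in 8 cell classes (x axis); points are libraries and black bars means of 3. Dsg3 to Dsg2 runs from 2.66 ± 0.25 (mean ± SD) in squamous cells to -2.55 ± 0.44 in ciliated cells, and Pkp1 to Pkp2 from 3.79 ± 0.22 to -4.13 ± 0.74.

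A second class of secretoglobin-positive cells carried at least 2 UMIs of Trp63 as well (716 cells). It was deeper than basal and secretory cells, with a median of 20589.5 UMIs against 15134 and 15633. The part of remaining doublets in this class was not tested. Its desmosome profile was between those of basal and secretory cells for 9 of the 10 genes in the mean of 3 libraries: Dsg3 stood at 61.6 ± 8.36 CPM (SD, n = 3), Dsc3 at 17.3 ± 5.36, Pkp1 at 68.7 ± 5.74 and Pkp2 at 28.7 ± 1.94 CPM. Dsg2 was also between them, at 96.5 ± 7.52 CPM. The share of all genes that lay between basal and secretory cells in this class was not counted. The 9 of 10 is therefore not read as a trait of the desmosome genes. The libraries overlapped with those of basal cells for Dsg2, Pkp1 and Perp, so these 3 were not set apart from basal cells. Jup, at 188 ± 12.9 CPM, was the exception that lay above both, and overlapped with basal cells. The remaining Dsc2, Pkp3, Dsp and Perp stood at 86.1, 40.8, 390.4 and 724 CPM. Gland acinar cells (395) held Dsg3 at 10.1, 13.6 and 7.16 CPM, Pkp1 at 2.53, 5.81 and 5.91 CPM and Dsc3 at 0.633, 0.646 and 0.623 CPM from 2, 1 and 2 UMIs. Their Pkp2, at 46.9, 42.6 and 47.6 CPM, was the highest mean of any class with 3 libraries and overlapped with that of secretory cells. No test was made of these classes.

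Neuroendocrine cells (49 and 24 in libraries 1 and 2) carried no Dsg3 UMI at all but 134 and 81 UMIs of Dsg2, 122 and 129.8 CPM, a level near that of ciliated cells. Their Pkp2 stood at 35.6 and 54.5 CPM and their Dsp at 476 and 409 CPM, the latter near that of basal cells. Tuft cells reached 20 cells in library 3 alone (26 cells), where Dsc2 stood at 259 CPM and Dsc3 at 137 CPM, with 164 and 87 UMIs. Each was above the basal level of that library and above its squamous level (244 and 111 CPM). The name tuft rests on at least 5 UMIs of Trpm5, Pou2f3 and Avil together, and no check of it with other genes is given here. With 2 and 1 libraries these classes were not tested.

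Sums do not say how many cells carry a gene, so each cell was thinned to 5000 UMIs and the share of cells with at least 1 UMI was taken. Shallower cells were left out, 628 of 14751 basal, 11 of 1475 squamous, 69 of 623 secretory and 152 of 907 ciliated cells. Of endothelial and immune cells, 137 of 475 and 55 of 181 were left out. Dsg3 was found in 39.3, 45.6 and 40.7% of basal cells in the 3 libraries, 69.3, 68.4 and 64.8% of squamous, 6.07, 7.69 and 10.3% of secretory and 6.49, 7.65 and 11.7% of ciliated cells. In immune cells, which should lack it, the share was 3.97% of 126 cells (95% Wilson interval 1.71 to 8.95%), and in endothelial cells it was 1.48%. Each secretory and ciliated library lay above the endothelial share and above the immune share, although the interval of the latter, from few cells, reaches past most of them. The immune and endothelial classes hold only cells without an Epcam or Cdh1 UMI, and the part of free RNA in the secretory and ciliated shares was not tested. Dsg2 was found in 39.1% ± 2.02 of basal, 18.9% ± 4.51 of squamous, 18.8% ± 3.21 of secretory and 48.8% ± 2.58 of ciliated cells (mean ± SD of 3 libraries), against 0.794% of 126 cells (95% Wilson interval 0.140 to 4.36%) among immune cells. Without thinning the Dsg2 shares were 72.7% ± 5.90 in basal, 55% ± 7.94 in squamous, 44.9% ± 0.294 in secretory and 73.5% ± 6.80 in ciliated cells; squamous cells are the deepest of these, with a median of 25358 UMIs.

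Pkp1 was found in 28.9% ± 2.38 of basal, 56.2% ± 4.24 of squamous, 9.20% ± 7.64 of secretory and 1.10% ± 0.785 of ciliated cells, and in 1.59% of 126 cells (95% Wilson interval 0.436 to 5.60%) of the immune class, which the ciliated share did not exceed. Pkp2 ran the other way, at 7.10% ± 1.01, 5.16% ± 0.983, 19.0% ± 6.78 and 13.3% ± 1.34, with 0% of 126 cells (95% Wilson interval 0 to 2.96%) in the immune class. Dsp was seen in 83.4% ± 2.23 of basal and 95.9% ± 0.606 of squamous cells and still in 54.3% ± 8.65 of secretory and 54.6% ± 4.30 of ciliated cells, and Perp in 95.5% ± 1.09, 98.6% ± 0.895, 62.1% ± 11.2 and 53.8% ± 6.40. No Dsc3 UMI was seen in the 338 endothelial cells of that depth, most of them from library 1; the 95% Wilson interval allows up to 1.12% of such cells to show a UMI, which is no limit on cells that express the gene. Intervals cover counting error only.

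At this depth the desmoglein paralogs were seen together in 14.9% ± 0.802 of basal cells, with Dsg2 alone in 24.2% ± 2.27 and Dsg3 alone in 27.0% ± 2.78. In squamous cells both were seen in 11.8% ± 3.06, Dsg2 alone in 7.12% ± 1.46 and Dsg3 alone in 55.7% ± 0.888. In ciliated cells Dsg2 alone was seen in a larger share than in basal cells, 44.4% ± 3.44, and Dsg3 alone in a smaller one, 4.30% ± 1.53. Cells in which neither was seen made up 33.9% ± 1.33 of basal, 25.4% ± 3.82 of squamous and 46.9% ± 1.37 of ciliated cells. The desmocollins were seen together in 7.95% ± 1.28 of basal and 19.4% ± 0.518 of squamous cells. Pkp1 alone was seen in 53.4% ± 3.93 of squamous cells and Pkp2 alone in 2.32% ± 0.830, while in secretory cells the values were 7.90% ± 5.83 and 17.7% ± 5.35, the former with a wide spread over libraries. A cell without a UMI of a gene at this depth may still express it.

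**Figure D4:**
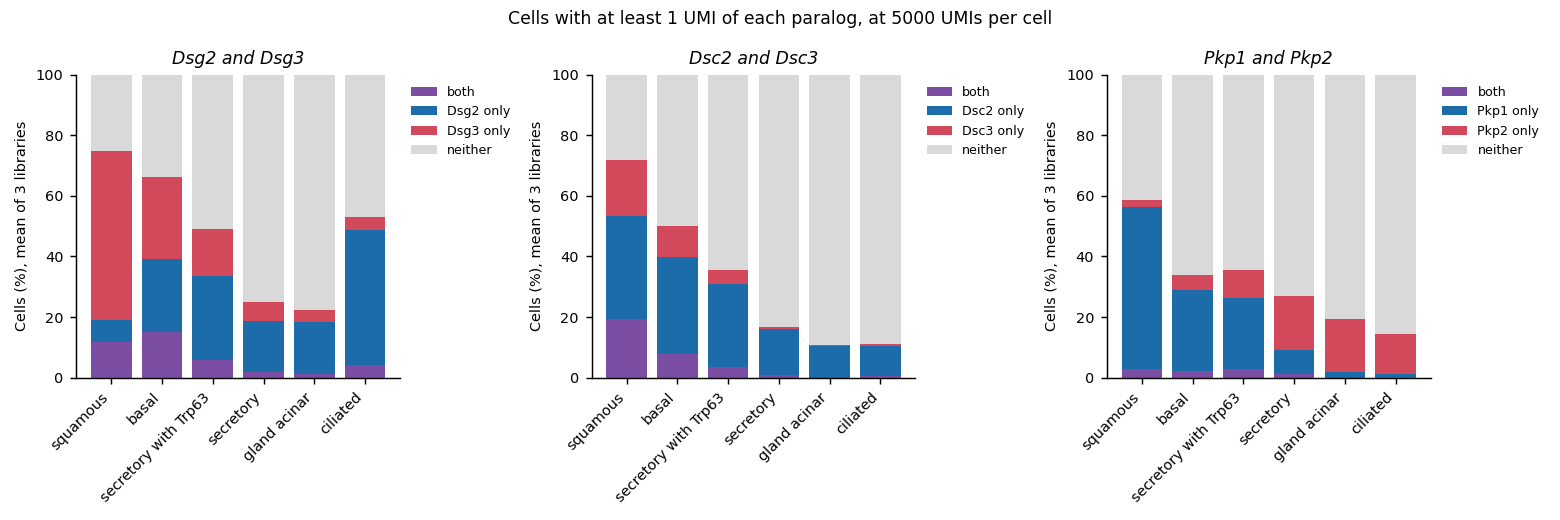
Share of cells (y axis, %, mean of 3 libraries, bars stacked to 100) with at least 1 UMI of both genes, of only 1 or of neither, for 3 paralog pairs in 6 classes (x axis), at 5000 UMIs per cell. In squamous cells Dsg3 alone takes 55.7% ± 0.888 (mean ± SD), and in ciliated cells Dsg2 alone takes 44.4% ± 3.44.

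The gap between basal and squamous cells was filled in by splitting keratin-rich epithelial cells that were in no other differentiated class into 4 bins by their Krt13 level, below 100, 100 to 500, 500 to 2000 and at least 2000 CPM. These edges were chosen after seeing the data, and no test was made. The bins required at least 10 UMIs of Krt5 and Krt15 together and at most 2 of the ciliated gate genes. The squamous gate did not, so the bins hold basal cells, cells between the classes and only those squamous cells within these limits. The bins held 13925, 2273, 2475 and 1015 cells with a median of 15650, 12194, 5960 and 24041 UMIs. Dsg2 had mean levels of 104, 76.6, 61.3 and 41.0 CPM along the bins, with 112, 97.4 and 104 CPM in the lowest and 50.9, 44.5 and 27.6 CPM in the highest. Dsg3 had 139, 207, 221 and 316 CPM, Dsc3 50.3, 81.9, 107 and 119 CPM and Pkp1 72.9, 112, 131 and 216 CPM. The means of all 4 were thus ordered along the Krt13 level, down for Dsg2 and up for the others, including in the shallow bin from 500 to 2000 CPM. Dsp (482, 683, 767 and 1114 CPM), Jup (158, 233, 283 and 414 CPM) and Perp (790.1, 896, 981 and 1454 CPM) were ordered upward as well. Pkp2, at 17.7, 19.4, 17.4 and 12.2 CPM, showed no such order. Of 3 basal genes in the same bins, the regulator Trp63 was at 782, 643, 558 and 418 CPM, Krt14 at 739, 1255, 1505 and 1198 CPM and Col17a1 at 272, 344, 373 and 329 CPM, so the latter pair was lowest in the lowest bin, the other way from Trp63.

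**Figure D5:**
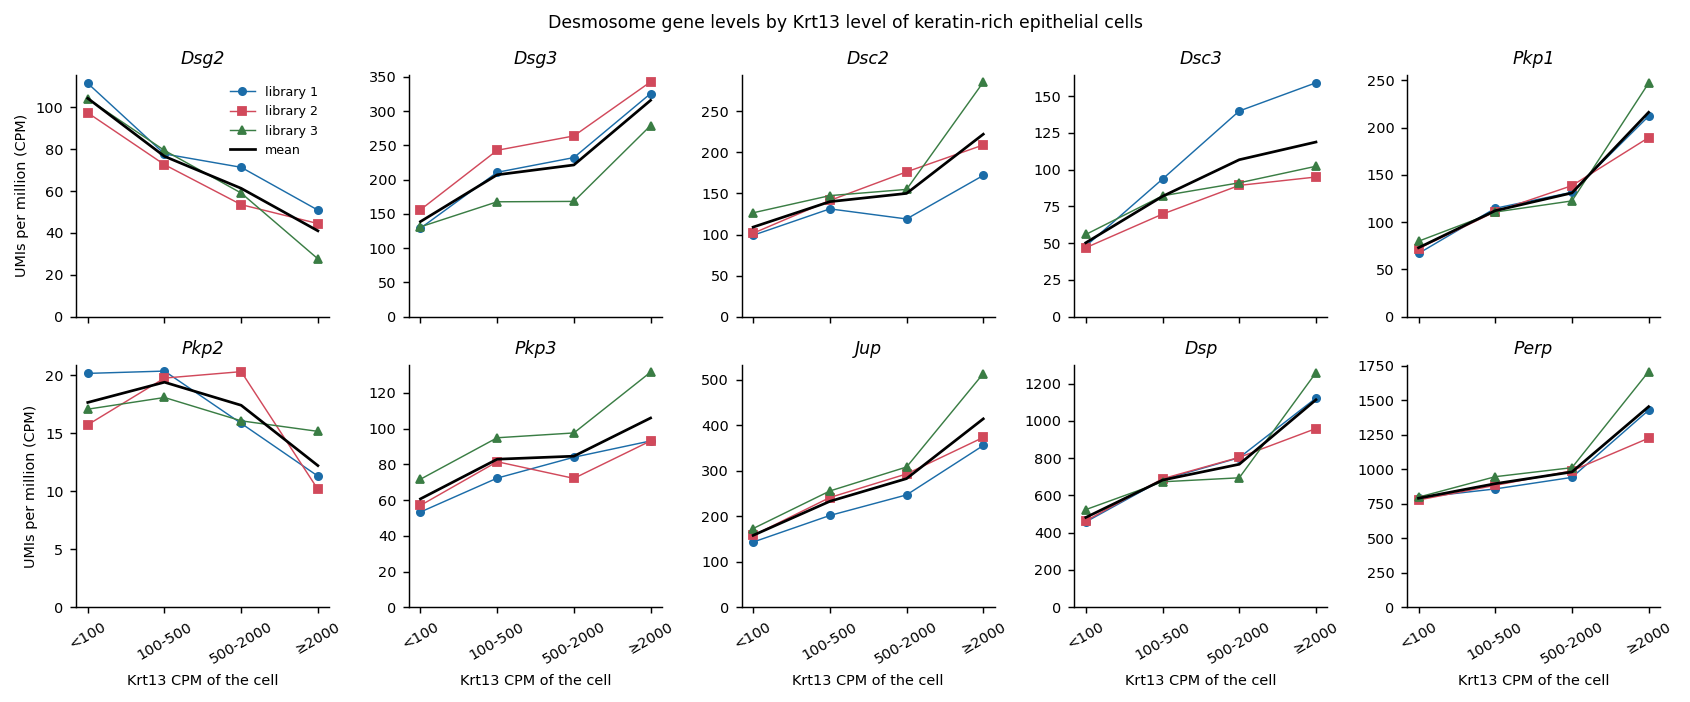
Levels of the 10 desmosome genes in CPM (y axis, from 0) in 4 bins of keratin-rich epithelial cells by Krt13 CPM (x axis); colored points and lines are libraries and the black line is their mean. The mean of Dsg2 runs down and those of Dsg3, Dsc3 and Pkp1 run up from the lowest to the highest bin, with mean Dsg2 levels of 104, 76.6, 61.3 and 41.0 CPM.

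Basal cells of the larynx lie under both pseudostratified airway epithelium and stratified squamous epithelium, and Nkx2-1 and Tmprss11a are among the genes the study used to tell these lineages apart. Basal cells with Nkx2-1 and no Tmprss11a (airway-type, 1740 cells) were compared with basal cells with Tmprss11a and no Nkx2-1 (squamous-type, 6782 cells). The check genes went with these names in part: Scnn1a and Aldh1a7 were higher in airway-type and Krt14, Krt6a and Pitx1 in squamous-type cells, while Foxa1 was at 154 and 148.5 CPM. Of the 10 desmosome genes, 1 was higher and 7 were lower in airway-type cells, where 9.17% of all 14798 genes tested were called higher and 8.59% lower.

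The desmogleins again ran in opposite directions within cells that are all gated as basal. Dsg3 stood at 79.6, 65.9 and 73.0 CPM in airway-type and at 177, 188 and 161 CPM in squamous-type cells, without overlap, a log2 fold change of -1.27 (SE 0.11, adjusted p = 2.25e-04). Dsg2 stood at 126, 117 and 127 CPM in airway-type and 101, 90.8 and 90.9 CPM in squamous-type cells, each airway-type library being higher, with a log2 fold change of 0.39 (SE 0.08, adjusted p = 0.0152). The log2 ratio of Dsg3 to Dsg2 was -0.67, -0.83 and -0.80 in airway-type and 0.80, 1.05 and 0.83 in squamous-type cells, a difference of -1.66 ± 0.21 within libraries (mean ± SD), with no overlap. Dsc3 stood at 33.9, 22.3 and 32.3 CPM in airway-type and 62.3, 52.0 and 71.6 CPM in squamous-type cells (log2 fold change -1.06, SE 0.16, adjusted p = 0.00294), and Dsc2 at 75.3, 71.0 and 99.5 CPM in airway-type and 117, 110.1 and 137 CPM in squamous-type cells (log2 fold change -0.57, SE 0.12, adjusted p = 0.0148). Neither desmocollin overlapped between the types. Dsp was lower in airway-type cells, at 351, 357 and 396 CPM against 576, 533 and 598 CPM, a log2 fold change of -0.63 (SE 0.08, adjusted p = 0.00180). Smaller differences were called for Pkp1 (log2 fold change -0.49, SE 0.09, adjusted p = 0.00763), Pkp3 (log2 fold change -0.50, SE 0.14, adjusted p = 0.0456) and Jup (log2 fold change -0.35, SE 0.10, adjusted p = 0.0438). Pkp2 (log2 fold change -0.06, SE 0.15, adjusted p = 0.839) and Perp (log2 fold change 0.10, SE 0.10, adjusted p = 0.571) did not pass.

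Most of these calls were lost with fewer libraries, while the folds stayed of similar size. Without library 1 only Dsg3 of the 10 genes was still called (log2 fold change -1.33, SE 0.15, adjusted p = 0.0142), among 676 genes in all instead of 2628, although Dsc3 stood at -1.16, Dsc2 at -0.53, Dsg2 at 0.43 and Dsp at -0.58; without library 2 the called genes were 4 of the 10 (Dsc3, Dsg3, Pkp1 and Dsp) and 1749 in all, and without library 3 they were 7 of the 10. Dsg3 was called in each of these. With library as a term of the fit, which pairs the sums of 1 pool, the same 8 genes were called and 5152 genes in all. With every cell thinned to 5000 UMIs, the gates were applied again to the thinned counts, so the 2 types did not hold the same cells. Dsc3, Dsg3 and Dsp were called there, and the other 5 were not: Dsc2 (log2 fold change -0.51, adjusted p = 0.0537), Dsg2 (0.24, 0.560), Pkp1 (-0.27, 0.489), Pkp3 (-0.20, 0.678) and Jup (-0.24, 0.438). Doubled gate thresholds ended the calls of Dsg2 (adjusted p = 0.0860), Pkp3 (0.0569) and Jup (0.0565), library totals those of Pkp3 (0.0842) and Jup (0.0681), and keeping doublets that of Pkp3 (0.0514).

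Outside the epithelium most of the 10 genes were close to 0. Against fibroblasts, satellite, endothelial, immune and the few other non-epithelial cells in 1 sum per library, all 10 were higher in epithelial cells, where 29.3% of all 18725 genes tested were called higher and 26.7% lower. The smallest differences belonged to Jup (log2 fold change 1.17, SE 0.17, adjusted p = 0.00103) and Pkp2 (log2 fold change 1.63, SE 0.17, adjusted p = 2.81e-04), and the largest to Dsc3 (log2 fold change 6.26, SE 0.38, adjusted p = 3.12e-05) and Dsg3 (log2 fold change 6.05, SE 0.16, adjusted p = 5.71e-06). In non-epithelial cells Dsc2, Dsc3, Dsg2, Dsg3, Pkp1 and Pkp3 stood at means of 2.52, 0.777, 2.03, 2.30, 2.53 and 3.03 CPM. Free RNA from lysed cells can give such counts, and its part was not tested. Epithelial cells were gated by at least 3 UMIs of Epcam and Cdh1 together and non-epithelial cells by none. Non-epithelial cells with stray RNA of these genes were thus left out of the comparison.

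Jup reached levels outside the epithelium like those of epithelial classes. Muscle satellite cells held 150.3, 143 and 148 CPM and overlapped with basal cells, endothelial cells held 144, 75.8 and 66.2 CPM, with library 1 the highest, and fibroblasts held 42.0, 32.0 and 43.1 CPM. Plakoglobin also serves in the adherens junctions of such cells. Satellite cells also held Pkp2 at 16.8, 10.7 and 9.81 CPM and Dsp at 31.4, 19.2 and 25.2 CPM, whereas Dsg2 was at 2.49, 1.13 and 2.88 CPM there. Immune cells showed Pkp3 at 27.1, 7.05 and 48.1 CPM from 40, 2 and 11 UMIs, a wide spread, and Perp was at 119 and 324 CPM in pericytes and smooth muscle cells of libraries 1 and 3, from 72 and 107 UMIs.

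Ordered by mean level over the 10 classes with 20 or more cells in each library, squamous cells were first for 8 genes, ciliated cells for Dsg2 and gland acinar cells for Pkp2. Of the 9 neighboring pairs in each order, 4 to 6 overlapped between libraries. For Dsg3 the order ran from squamous over basal and secretory cells with Trp63 to ciliated, secretory and gland acinar cells, with only ciliated and secretory cells overlapping within the epithelium. For Dsg2 it ran from ciliated over basal, secretory with Trp63, secretory and squamous to gland acinar cells, where basal cells overlapped with secretory cells with Trp63, and squamous cells with both of their neighbors.

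Cells were also split by Lrig1, a membrane regulator of growth factor receptors used as a stem cell marker. Cells with at least 1 Lrig1 UMI (21312) were compared with cells without one (23230) within each library. In the fit without pairing none of the 10 genes was called, and neither was any other gene (0% higher and 0% lower of 19782 genes; 2752 had an unadjusted p below 0.05), whereas DESeq2 called 947 genes, Dsg2 among them (log2 fold change 0.46, SE 0.13, adjusted p = 0.0152). The sums of 1 library come from the same pool of larynges, and with library as a term of the fit 7 genes were higher and none lower (10.8% and 14% of all genes). They were Dsc2 (log2 fold change 0.48, SE 0.09, adjusted p = 0.0214), Dsg2 (log2 fold change 0.47, SE 0.08, adjusted p = 0.0159), Dsg3 (log2 fold change 0.31, SE 0.05, adjusted p = 0.0150), Dsp (log2 fold change 0.32, SE 0.06, adjusted p = 0.0222), Pkp1, Pkp2 and Perp. Dsg2 stood at 90.7, 89.1 and 89.9 CPM in Lrig1+ and 56.6, 71.1 and 72.2 CPM in Lrig1- cells, higher in 3 of 3 libraries. The paired fit called 4 of the 10 genes without library 1, none without library 2 and 6 without library 3, and 4220, 611 and 2918 genes in all.

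Lrig1+ cells were deeper, with a median of 15004, 17764 and 14397 UMIs against 7143, 9643 and 6331, and more of them were gated as basal (9592 of 21312 against 5159 of 23230). With every cell thinned to 5000 UMIs and shallower cells left out, the fit without pairing gave the 10 genes a median log2 fold change of 0.04 instead of 0.27, with 6 instead of 9 of them above the median of all genes and none called; Dsg2 stood at 0.31 and Dsg3 at 0.04. The thinned cells were split again by the Lrig1 UMIs left to them, so cells that lost theirs moved to the Lrig1- group. The differences of the 10 genes by Lrig1 were mostly smaller in this fit, which changed both depth and groups, and the part of each was not tested. The paired fit was not run on thinned cells.

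The same split was made within basal cells alone. The fit without pairing again called no gene (0% and 0% of 16063; 598 had an unadjusted p below 0.05), and DESeq2 called 44, including Dsc3. With library as a term, 2 of the 10 genes were lower and none higher in Lrig1+ basal cells (4.43% and 3.74% of all genes). Dsc3 stood at 44.9, 44 and 56.2 CPM in Lrig1+ and 74.3, 64.8 and 68.6 CPM in Lrig1- basal cells, lower in 3 of 3 libraries with no overlap, a log2 fold change of -0.49 (SE 0.07, adjusted p = 8.11e-04). Perp stood at 787, 781 and 799 CPM in Lrig1+ and 902, 843 and 872 CPM in Lrig1- basal cells (log2 fold change -0.14, SE 0.03, adjusted p = 0.0170), a call lost without library 1 (adjusted p = 0.114). Dsc2, Dsg2 and Dsg3 had log2 fold changes of 0.04, 0.08 and -0.13 in the same fit and were not called, though without library 3 Dsg3 and Pkp1 passed as lower too. Dsc3 was called whichever library was left out of the paired fit. Lrig1+ basal cells were also deeper, with a median of 16919, 20091 and 15527 UMIs against 13564.5, 17309 and 10694. The basal gate allows up to 4 Krt13 UMIs at any depth, and mean Dsc3 rose with the Krt13 level in the bins above. The part of depth and of Krt13 in the Dsc3 difference was not tested, and the paired fit was not run on thinned cells.

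Of 9 further genes of desmosomes and the cornified envelope (Dsc1, Dsg1a, Dsg1b, Dsg1c, Dsg4, Pkp4, Cdsn, Evpl and Ppl), only Pkp4, Evpl and Ppl passed the filter in the comparisons between classes. Envoplakin (Evpl) and periplakin (Ppl), plakins of the cornified envelope, were higher in squamous than in basal cells, with log2 fold changes of 1.75 (SE 0.23, adjusted p = 1.95e-06) and 1.01 (SE 0.18, adjusted p = 1.45e-04). Pkp4 had 0.02 and was not called. All 3 were lower in ciliated than in basal cells, with Evpl at -3.47 (SE 0.33, adjusted p = 5.22e-10), though only 2 of the 3 were called with DESeq2, with its size factors, without library 1, without library 2 or after thinning, and none was called between secretory and basal cells. In airway-type against squamous-type basal cells Pkp4 (log2 fold change -0.91, SE 0.08, adjusted p = 2.34e-04) and Evpl (log2 fold change -0.93, SE 0.20, adjusted p = 0.0140) were lower, and 1 of them was called without library 1, without library 2 or after thinning. In secretory against squamous cells Evpl and Ppl were lower, and all 3 were higher in epithelial than in non-epithelial cells.

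Genes of other junctions were counted in the same way. Of 11 adherens junction genes, 3 were higher and 2 lower in squamous than in basal cells, with log2 fold changes of 3.06 (SE 0.17, adjusted p = 2.32e-12) for Nectin4, -3.34 (SE 0.39, adjusted p = 5.07e-07) for Nectin3 and -3.83 (SE 0.35, adjusted p = 2.65e-08) for Cdh2 (N-cadherin). The count of higher genes was 6 with library as a term, after thinning, with doubled gates and in the fit of the 2 classes alone, and 1 with library totals, without the filter, without library 1 and without library 3, and 2 without library 2. In secretory cells 3 were higher and 3 lower than in basal cells, in ciliated cells 3 and 4. The median log2 fold change of the 11 was 0.33, 0.11 and -0.01 in these comparisons. Of 6 hemidesmosome genes, which anchor the basal cell to the matrix, none was called between squamous and basal cells (edgeR; median 0.25), although 1 was called higher with library as a term and 2 when only the 2 classes compared were fitted, and 1 was called lower after thinning. All 6 were lower in secretory and all 6 in ciliated than in basal cells, with Col17a1 at -3.60 (SE 0.29, adjusted p = 2.77e-10) and -4.90 (SE 0.31, adjusted p = 1.22e-13). In secretory against squamous cells 2 adherens junction genes were higher and 5 lower, and all 6 hemidesmosome genes were lower. In airway-type against squamous-type basal cells the counts were 2 higher and 1 lower, and 0 and 4. The former were 1 and 1 without library 1, 2 and 2 without library 3, 4 and 3 with library as a term and 1 and 0 after thinning, and the latter fell to 0 and 0 without library 1 and to 0 and 2 without library 2. In epithelial against non-epithelial cells they were 8 and 1, and 6 and 0.

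Of 10 genes of the response to tissue dissociation, such as Fos, Jun and Egr1, none was called between squamous and basal, airway-type and squamous-type basal, or epithelial and non-epithelial cells in the unpaired edgeR fit. With library as a term, 1 was higher and 2 were lower in airway-type than in squamous-type basal cells and 2 were lower in epithelial cells. Without library 2 and after thinning, 1 was lower in airway-type cells, and in epithelial cells 1 was lower with library totals, without the filter, without library 2 or with DESeq2, and 3 after thinning. The fit of the 2 classes alone called 1 higher in squamous than in basal cells. Between secretory and basal cells 1 was lower (Jun, log2 fold change -1.66, SE 0.59, adjusted p = 0.0381), none without library 1 or with DESeq2, 2 without library 2, with library as a term, with library totals, without the filter or with doubled gates, and 4 in the fit of the 2 classes alone. Between secretory and squamous cells 2 were lower, with a range from none without library 1 to 5 without library 2 or with library as a term. In ciliated against basal cells 7 were lower, with Egr1 at -3.46 (SE 1.14, adjusted p = 0.01); their part in the desmosome results for ciliated cells was not tested.

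The genes most like each member were taken by the Pearson correlation of log2 levels over 30 sums (10 classes in 3 libraries) among 10782 genes, as a description, since the sums of 1 class share their cells and those of 1 library its depth. Dsg3 was most like Serpinb5 (r = 0.951), Dsc3 most like Foxe1 (0.984) and Sox15 (0.966), and Pkp1 most like the water channel Aqp3 (0.966) and the keratin Krt75 (0.957). Dsg2 was most like Cxadr (0.98), a junction protein of epithelia, and Grhl2 (0.978), an epithelial transcription factor, and Pkp2 most like Cadm4 (0.957) and Tlcd4 (0.956). For Dsc2 they were Epha1 (0.986) and Inava (0.986), for Perp Upk1b (0.983), for Pkp3 Mink1 (0.925) and Sytl1 (0.901), and for Jup Dapk2 (0.9) and Hk1 (0.897). Klf5 (0.971) was among those most like Dsp. Within the 10 genes, the closest to Dsg3 was Perp (0.947), to Dsc3 Pkp1 (0.93) and to Pkp2 Dsg2 (0.845).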

How the data were processed

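Larynges were pooled, dissociated and sorted, and 10x Genomics 3' libraries were made; per the paper's methods the authors aligned and counted reads with Cell Ranger 8.0.1 against the mouse genome. The deposited values are whole UMI counts per gene and cell barcode, with no normalization. A cell had to have between 500 and 8000 genes, between 1000 and 40000 UMIs and no more than 8% of its UMIs from mitochondria; doublet scores then removed 1030, 326 and 3495 cells, and 13222, 7201 and 24119 cells with 156661306, 109725746 and 290012420 UMIs remained.

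Counts were summed per library and class and tested over all genes with edgeR 4.0.16 (R 4.3.3; quasi-likelihood test, TMM factors, filterByExpr, Benjamini-Hochberg, 2-sided, threshold 0.05); classes with at least 20 cells in each library shared 1 fit. Genes of the gates were left out of the tests, except in the Lrig1 comparison of all cells, which kept them. Lrig1 itself was left out of both Lrig1 comparisons. DESeq2 1.42.0, a library block, other scalings, filters, gates, thinning and left-out libraries were alternatives. Only paralog ratios were tested by exact permutation over libraries. Every result after thinning leaves out the cells below its depth. Shares of cells were taken after thinning each cell to 5000 UMIs, in the classes set from the unthinned counts. The fits and ratios after thinning instead applied the same gates, and the split by Lrig1, to the thinned counts. Their classes thus hold other cells, and 8 classes remained in the shared fit. The edgeR method was tested on simulated, independent counts of pairs of groups. That simulation had neither the shared fit of all classes nor the pairing by pool, so it does not test these.

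Libraries of the same number come from the same pool of animals, so their sums are paired: deviations of sums of 1 library from the class means correlated at r = 0.0962 to 0.577 between classes and 0.401 to 0.734 in the Lrig1 comparisons. The pools are separate animals. Without the library block, sums of 1 pool entered a fit as if independent, and the class fit took the spread over pools from 10 classes together. The smallest edgeR adjusted p of any gene between squamous and basal cells was 2.29e-16 in the class fit and 3.24e-05 with only these 2 classes fitted. With the block, p-values measure the spread of differences within pools. The 10 genes and the gene lists were chosen with earlier results of these data known. Named genes were the 10 members, the list genes with the largest changes and the 2 genes most correlated with each member, of which 1 gene is not reported here. Near-identical copies and 52 symbols on more than 1 row were left as deposited.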

Additional observations from a re-analysis of the deposited data

How the results depend on the processing

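Of 55 calls among the 10 genes, 642 values under alternatives gave 607 with the same direction and call, 35 that lost the call (23 of them on leaving out a library) and none that turned. Across all genes, calls between secretory and basal cells were 6853 with library totals and 2510 after thinning, and 3236 after thinning between secretory and squamous cells. Leaving out 1 library gave 1701 to 3152 genes between squamous and basal cells (5 to 9 of the 10 members), 2090 to 3783 between secretory and basal cells, 3598 to 5165 between secretory and squamous cells and 676 to 2278 between airway-type and squamous-type basal cells (1 to 7 members). Thinning left 884 genes and 3 members in the last comparison, and doubled gates 5 members.

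With the replicate block, which pairs sums of 1 pool, 5152 genes were called between airway-type and squamous-type basal cells, 4905 genes and 7 members by Lrig1 in all cells and 1313 genes and 2 members in basal cells, where the fit without the block called 0; the block changed no other call of the 10 genes. DESeq2 called 947 genes with 1 member and 44 genes with 1 member. With the block and 1 library left out the ranges were 611 to 4220 genes (2918 without library 3) and 0 to 6 members in all cells, and 1097 to 1255 genes (1098 without library 1) and 1 to 4 members in basal cells.

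Ratios after thinning come from classes gated again on the thinned counts, so both depth and cells differ from the main ratios. The log2 shifts of Dsg3 to Dsg2 moved to 2.95 after thinning (squamous minus basal), -2.26 and -4.64 with doubled gates (secretory minus basal, secretory minus squamous), -2.65 without doublet removal (ciliated minus basal) and -1.32 after thinning (airway-type minus squamous-type). Those of Dsc3 to Dsc2 turned to -0.13 after thinning (squamous minus basal), and moved to -1.72 without doublet removal and -4.02 with doubled gates (ciliated minus basal) and -1.15 after thinning (basal types). Those of Pkp1 to Pkp2 moved to 2.23 (squamous minus basal), -4.53 (secretory minus basal), -6.76 (secretory minus squamous) and -0.92 (basal types) after thinning, to -4.49 and -6.17 with doubled gates (secretory minus basal and squamous) and to -4.40 without doublet removal (ciliated minus basal). Those of Pkp3 to Pkp2 moved after thinning to -3.88, -2.62, -5.03 and -1.02 (secretory minus basal, ciliated minus basal, secretory minus squamous, basal types), with doubled gates to -3.28, -2.85 and -0.63 (secretory and ciliated minus basal, basal types) and without doublet removal to -2.37 (ciliated minus basal). Shares of cells with Dsg2 were 7.49% at 2000 UMIs and 55% unthinned in squamous cells and 23.9% and 73.5% in ciliated cells; those with Dsg3 were 42.0%, 94.3% and, with doubled gates, 70.0% in squamous cells, and 3.38%, 17.6% and, without doublet removal, 11.4% in ciliated cells.

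Log2 fold changes that turned sign had not been called: Jup in secretory against basal cells (-0.03 without the filter, -0.29 with library totals, -0.08 to 0.11 with 1 library left out), Pkp2 between basal types (0.49 thinned, 0.03 with doubled gates, -0.12 to 0.06 with 1 library left out), Perp between basal types (-0.05 thinned), Pkp1, Pkp3 and Jup by Lrig1 in all cells (-0.01, -0.03 and -0.02 thinned), and in basal cells Dsc2 (-0.00 with doubled gates) and Jup (-0.04 to 0.02 with 1 library left out, and 0.02 without library 3 under the block). The cause was not tested. Leaving out each library under the block was chosen after seeing the data. With 3 pools of 1 condition, effects of single animals or of sex could not be measured, and genes at a few UMIs per class, such as Dsc3 in secretory cells, limit the size of a fold.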
